A study of Mus musculus with 2 samples.

Results

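Growth factors that act on blood vessels and on neighbouring cells were examined in adipose tissue macrophages (ATM), the macrophages of fat. The group was 10 genes chosen by name from the 20330 genes of the deposited table. Vegfa, Vegfb and Pgf encode ligands of the VEGF family, Pdgfa, Pdgfb and Pdgfc encode platelet-derived growth factor chains, and Igf1 encodes insulin-like growth factor 1. Hbegf and Areg encode ligands of the EGF receptor, and Thbs1 encodes thrombospondin-1, a matrix protein known as an inhibitor of angiogenesis. The cells were F4/80 and CD11b sorted macrophages of visceral fat from C57BL/6 mice that received a high-fat diet over 12 weeks, and by the study's methods the mice were 4 weeks old when the diet began. WT mice were hMRP8cre-;Hif-1αfl/fl;ApoE-/- and KO mice were hMRP8cre+;Hif-1αfl/fl;ApoE-/-, so by label both lacked ApoE and carried loxP-flanked Hif-1α, although Apoe was listed above 0 in both libraries. In KO mice, Cre under the human MRP8 promoter, which is active in myeloid cells including neutrophils and monocytes, was there to delete Hif-1α, whose product is the HIF-1 subunit that oxygen destabilises. Each genotype was 1 library, and how many animals gave each library is not stated, so every difference is between these libraries and has no replicate check.

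In fat, macrophages can release factors that help capillaries grow and precursor cells divide as the tissue expands. VEGF-A signals through the receptors FLT1 and KDR on endothelial cells, with neuropilins as co-receptors, whereas VEGF-B and placental growth factor, the product of Pgf, bind FLT1. Vegfa is a textbook HIF-1 target, which makes it of interest in cells meant to lack HIF-1α. PDGF chains act on PDGFRA and PDGFRB of fibroblasts, precursors and pericytes, IGF1 acts on IGF1R, and HB-EGF and amphiregulin act on EGFR. Thrombospondin-1 binds CD36 and CD47.

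HIF-1 binds DNA at the core letters ACGTG or GCGTG, so the sequence just before the start of these genes was read. A window was found for 7 of the 10 genes in the RefSeq promoter sequences of GRCm38.p6, and Pdgfb, Hbegf and Thbs1 were not matched. The 250 bases before the start are shown for the 4 genes whose window overlapped no annotated exon of the same gene, 5′ to 3′ on the strand of the gene. Capitals mark the HIF-1 cores, the GC box GGGCGG, the cyclic AMP response element TGACGTCA, the AP-1 site TGANTCA and the TATA box TATAAA, read on both strands, and neighbouring motifs run together.

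Vegfa (chr17:46032378-46032627, minus strand): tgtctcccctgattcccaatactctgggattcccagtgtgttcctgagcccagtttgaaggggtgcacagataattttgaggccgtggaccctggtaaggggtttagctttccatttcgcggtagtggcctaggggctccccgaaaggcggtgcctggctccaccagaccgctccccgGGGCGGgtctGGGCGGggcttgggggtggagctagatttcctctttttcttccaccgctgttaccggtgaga

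Vegfb (chr19:6987652-6987901, minus strand): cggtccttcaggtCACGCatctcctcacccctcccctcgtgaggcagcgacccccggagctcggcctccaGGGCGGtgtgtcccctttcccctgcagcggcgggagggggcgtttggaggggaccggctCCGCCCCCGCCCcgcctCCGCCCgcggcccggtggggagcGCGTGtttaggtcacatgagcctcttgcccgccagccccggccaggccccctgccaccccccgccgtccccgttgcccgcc

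Pdgfc (chr3:81036166-81036415, plus strand): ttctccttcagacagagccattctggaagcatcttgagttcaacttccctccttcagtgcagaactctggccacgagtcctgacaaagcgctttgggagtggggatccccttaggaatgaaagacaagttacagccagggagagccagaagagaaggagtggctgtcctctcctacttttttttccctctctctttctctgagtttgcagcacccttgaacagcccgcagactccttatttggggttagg

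Areg (chr5:91139349-91139598, plus strand): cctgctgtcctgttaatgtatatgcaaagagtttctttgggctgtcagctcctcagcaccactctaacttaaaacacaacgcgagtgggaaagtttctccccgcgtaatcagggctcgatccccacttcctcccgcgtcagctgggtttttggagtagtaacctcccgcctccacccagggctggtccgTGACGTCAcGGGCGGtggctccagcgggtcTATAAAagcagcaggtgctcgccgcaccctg

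The Vegfb window held the core GCGTG at 2 places. Neither core was present in the windows of Vegfa, Pdgfc and Areg shown here, which says only that these letters are not within these 250 bases. A second Vegfa window, at a start inside the gene that overlaps an exon and is not printed, held both cores. Of the 10 windows of the 7 genes, 5 held a core, 1 each for Vegfa, Vegfb, Pgf, Pdgfa and Igf1, against 38.6% of the 32851 promoter windows of the same length. The 10 windows had a GC content of 50.8% to 76.4%, against a median of 52.4% over all windows. The Areg window held a cyclic AMP response element, 61 to 54 bases before the start, and a TATA box. These motifs occurred in 1.55% and 12.4% of all windows. The Pdgfc window held none of the motifs. The printed Vegfa window held the GC box at 2 places, Vegfb at 4 and Areg at 1, against 32.7% of all windows with at least 1.

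Levels are given as FPKM, fragments per kilobase of transcript scaled to the mapped fragments of the library, which allows genes of unequal length to be compared. Igf1 was the highest of the 10 genes in both libraries, at 116 FPKM in WT against 93.6 FPKM in KO. Hbegf was the next in both, at 42.3 FPKM in WT against 33.9 FPKM in KO. Igf1 alone made up 38.96% of the FPKM summed over the 10 genes in WT and 38.1% in KO. The lowest in WT was Pgf, which was listed at 0, and the lowest in KO was Vegfa. Of the 45 pairs that can be formed from the 10 genes, 36 had the same order in both libraries and 9 did not. The spread between replicates is unknown, so neighbours in this order cannot be called different.

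**Figure D1:**
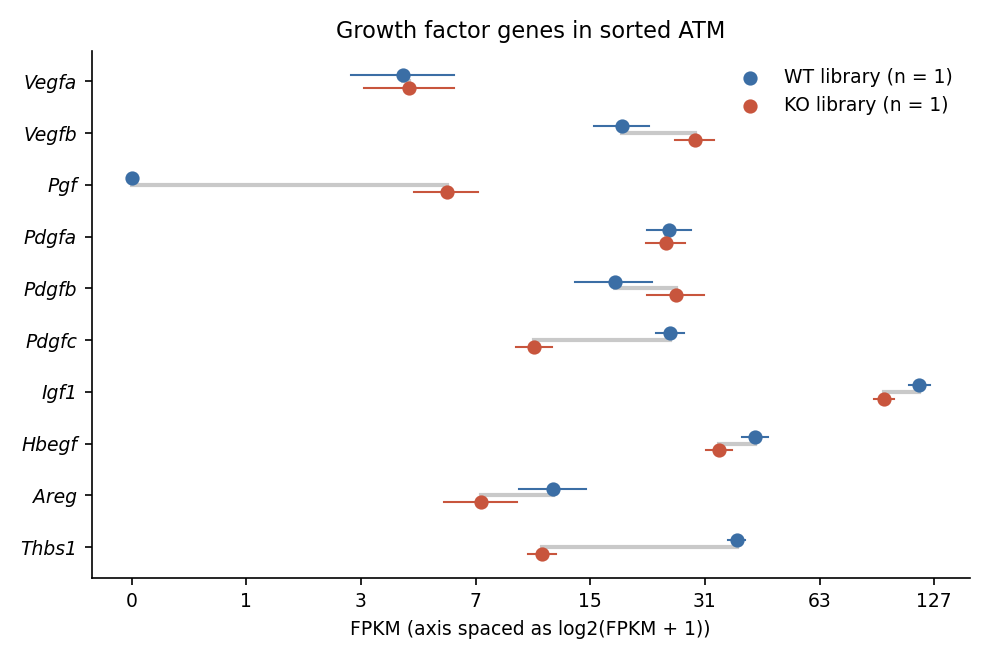
Level of each growth factor gene in the WT library (blue) and the KO library (red), in FPKM on an axis spaced as log2(FPKM + 1). Thin bars are 95% exact Poisson intervals from estimated fragment numbers and cover counting error only, with none for Pgf in WT, which was listed at 0. Thbs1 and Pdgfc sit lower in KO, Pgf higher, and the points of Vegfa and of Pdgfa nearly coincide.

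Differences were taken as log2(FPKM + 1), KO minus WT, and a gene was counted as past 3-fold when this reached 1.58 in either direction. Pgf was past 3-fold higher and Thbs1 past 3-fold lower in KO, and the other 8 genes were not past it. By this rule 27.3% of all 10297 genes compared were past 3-fold, 13.6% higher and 13.7% lower, so 2 of 10 was within the background. All 10 genes passed the filter, which asked for 1 FPKM or more in either library. The median difference over the 10 genes was -0.17, with 4 higher and 6 lower, against a median of 0.03 over all genes compared.

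Thbs1 (ENSMUSG00000040152, GRCm38 chromosome 2, 118111876 to 118127133, plus strand, 22 exons in its coding transcript) was at 37.8 FPKM in WT against 10.98 FPKM in KO. The KO level was 29.05% of the WT level, and the difference was -1.70 on the log2(FPKM + 1) scale. About 1297 fragments in WT and 479 in KO, by estimate, lay behind these values, and the 95% exact Poisson intervals, which cover counting error only, were 35.8 to 39.9 FPKM and 10.02 to 12.0 FPKM. Of the 1711 genes with a mean of 20 to 50 FPKM, where Thbs1 lies, 11.7% were past 3-fold and 5.55% had a lower difference than Thbs1. In bulk RNA, fewer cells of a type and less RNA per cell cannot be told apart. Platelets are rich in thrombospondin-1, so their markers were read in the same libraries. Of 5 platelet and megakaryocyte markers other than Pf4, 3 were lower in KO, and Gp9 and Treml1 were at 0 in both. The sum over the 5 went from 16.2 FPKM to 1.57 FPKM. Gp1ba was at 8.84 FPKM and Itga2b at 2.22 FPKM in WT, and both were listed at 0 in KO. Among all genes at 5 to 10 FPKM in WT, 10.2% were listed at 0 in KO, and 20.2% of those at 2 to 5 FPKM. Ppbp was at 5.16 and 1.57 FPKM. Pf4, which macrophages also express, was at 1448 FPKM in WT against 2115 FPKM in KO. With Pf4 counted, the sum over the list was 1464 FPKM in WT against 2117 FPKM in KO. The part of platelet RNA in the Thbs1 difference was not tested.

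Of the receptors of thrombospondin-1, Cd47 was past 3-fold lower in KO and Cd36 was not past 3-fold. Cd47, which encodes a receptor that also acts as a signal against phagocytosis, was at 62.05 FPKM in WT against 19.6 FPKM in KO, a difference of -1.61 on the log2(FPKM + 1) scale, just past 3-fold. It was short of 3-fold, at -1.57, when the libraries were scaled to the same sum. Cd36, which encodes a scavenger receptor for fatty acids and lipoproteins, was at 288 FPKM in WT against 418 FPKM in KO, not past 3-fold. Of the other thrombospondin genes, Thbs3 was at 2.57 FPKM in WT against 12.4 FPKM in KO, a difference of 1.91, past 3-fold. Cd47 and Thbs3 were 2 of the 3 genes compared on this list, against 27.3% of all genes past 3-fold. Thbs2, Thbs4 and Comp were listed at 0 in both libraries.

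Within the PDGF family, Pdgfc was lower in KO past 2-fold, and Pdgfa and Pdgfb were not past 2-fold. Pdgfc (ENSMUSG00000028019, GRCm38 chromosome 3, 81036416 to 81214040, plus strand) was at 24.9 FPKM in WT against 10.4 FPKM in KO, a difference of -1.18, past 2-fold but not past 3-fold. Among all genes compared, 45.6% were past 2-fold, 23.1% higher and 22.5% lower. At a mean of 10 to 20 FPKM, where Pdgfc lies, 15.9% had a lower difference than Pdgfc, and 20.6% were past the stricter 3-fold. The counting intervals of Pdgfc were 22.8 to 27.2 FPKM in WT and 9.22 to 11.7 FPKM in KO. Pdgfa was at 24.8 FPKM in WT against 24.3 FPKM in KO, a difference of -0.03 whose sign changed with the scaling of the libraries. Pdgfb was at 17.6 FPKM in WT against 25.8 FPKM in KO, a difference of 0.53 that lay within the quartiles of its band, -0.57 and 0.59. Its counting intervals, 13.6 to 22.3 FPKM and 21.5 to 30.7 FPKM, overlapped, but this depends on the transcript length used. Over its coding transcripts, the estimated fragments of Pdgfb ran from 39.6 to 303 in WT and from 74.0 to 567 in KO. The sum of the 3 chains was 67.3 FPKM in WT against 60.5 FPKM in KO. Pdgfc made up 37.0% of that sum in WT and 17.2% in KO, and Pdgfb 26.1% and 42.6%, shares that carry the counting error of each chain.

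**Figure D2:**
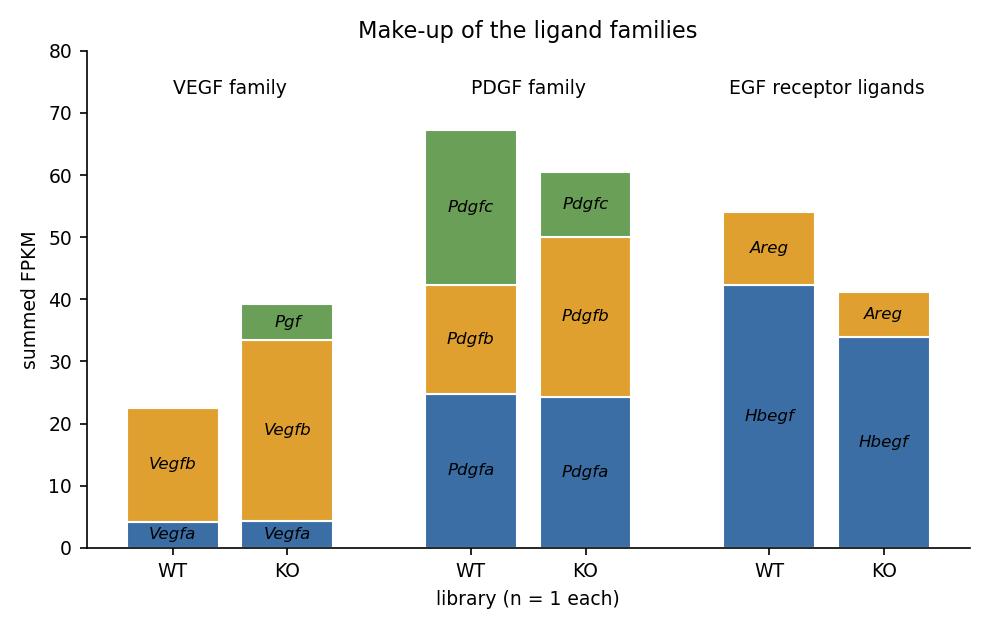
Summed FPKM of the chosen growth factor genes, by family, in the WT and KO libraries (n = 1 each), with each segment 1 gene. Ligands outside the chosen genes, such as Tgfa, are not part of the bars. The PDGF bars reach 67.3 and 60.5 FPKM, with a smaller Pdgfc segment in KO, and the VEGF bar is higher in KO through Vegfb and Pgf.

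PDGF-C is secreted as a latent dimer, and tissue plasminogen activator is known to cleave it into its active form. Plat, which encodes that protease, was low, at 1.14 and 1.13 FPKM. Plau, which encodes urokinase, known as an activator of PDGF-D, was at 115 FPKM in WT against 121 FPKM in KO, and Pdgfd was listed at 0 in both. The receptor genes were low. Pdgfra was at 0.0246 FPKM in WT against 4.98 FPKM in KO, and Pdgfrb was at 2.998 and 0.216 FPKM. Both differences were past 3-fold, in opposite directions, and each gene was under 1 FPKM in 1 of the libraries. At these levels such differences were common, since 49.0% of the genes averaging 2 to 5 FPKM, as Pdgfra did, and 64.3% of those averaging 1 to 2 FPKM, as Pdgfrb did, were past 3-fold. They were 2 of the 4 genes compared on this list, against 27.3% of all genes. These receptors are known from fibroblasts and pericytes. Each of the 5 fibroblast markers compared had a higher value in KO, 1 of them past 3-fold, against 13.6% of all genes past 3-fold higher. The sum over all 6 markers was 49.2 FPKM in WT against 90.4 FPKM in KO, while 3 of 5 mural cell markers, Acta2, Des and Myh11, were at 0 in both. Of the other mural markers, Rgs5 was at 1.56 FPKM in WT against 0.0778 FPKM in KO, and Cspg4 was at 0 and 0.382 FPKM. The sum over the 5 mural markers was 1.56 FPKM in WT against 0.460 FPKM in KO. The parts of fibroblast RNA in the Pdgfra difference and of mural cell RNA in the Pdgfrb difference were not tested.

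Vegfa (ENSMUSG00000023951, GRCm38 chromosome 17, 46016993 to 46032369, minus strand) was at 4.17 FPKM in WT against 4.36 FPKM in KO. The difference was 0.05 on the log2(FPKM + 1) scale and lay between 0.03 and 0.09 over 10 of the 11 alternatives. The filter on a mean of 5 FPKM leaves Vegfa out. Only the alternatives of pseudocount and scaling changed the difference of Vegfa. Its level was low, with 28.1% of the genes listed above 0 in WT below it. By estimate, 28.0 fragments lay behind the WT value and 37.2 behind the KO value, for the median length of its 8 annotated coding transcripts. The counting intervals were 2.77 to 6.03 FPKM in WT and 3.07 to 6.00 FPKM in KO, and the second lay within the first. Among the 1947 genes with a mean of 2 to 5 FPKM, 49.0% were past 3-fold, so a moderate difference in Vegfa was not detectable here. The targeted gene, Hif1a, was itself at 30.4 FPKM in WT against 20.97 FPKM in KO, a difference of -0.52. The table gives 1 value for the whole gene, so the floxed part was not read separately. Apoe, the gene that all these mice lack by label, was at 94.3 FPKM in WT against 117 FPKM in KO.

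Vegfb was the highest VEGF family gene in both libraries, at 18.4 FPKM in WT against 29.1 FPKM in KO, a difference of 0.64. Its counting intervals, 15.3 to 21.8 FPKM and 25.7 to 32.8 FPKM, did not overlap. In its band of 20 to 50 FPKM, the quartiles of the difference over all genes were -0.57 and 0.59, so Vegfb lay just above the upper one. Pgf (ENSMUSG00000004791, GRCm38 chromosome 12, 85166635 to 85177790, minus strand) was listed at 0 in WT but at 5.73 FPKM in KO, on an estimated 78.3 fragments. No fold is given, since an exact 0 in such a table can be a failed estimate. Of the 1724 genes at 5 to 10 FPKM in KO, 203, or 11.8%, were listed at 0 in WT. Pgf is known from endothelial cells as well as macrophages. Of 7 endothelial markers, Emcn, Cldn5 and Egfl7 were at 0 in both libraries. Pecam1 was at 6.67 FPKM in WT against 8.70 FPKM in KO, and Cdh5 was at 5.53 and 5.98 FPKM. Tie1 was at 4.12 FPKM in WT but listed at 0 in KO, and Vwf was at 1.031 and 0.116 FPKM. The sum over the 7 was 17.3 FPKM in WT against 14.8 FPKM in KO, and the part of endothelial RNA in the Pgf difference was not tested.

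**Figure D3:**
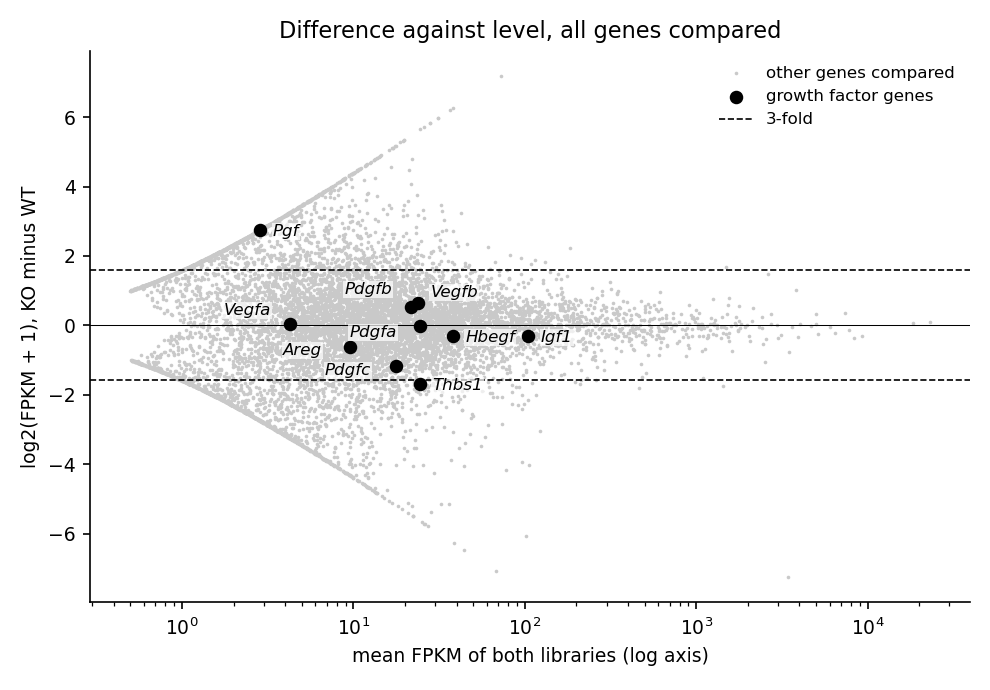
Difference in log2(FPKM + 1), KO minus WT, against the mean FPKM of both libraries (log axis) for the 10297 genes compared, with the 10 growth factor genes in black, the others in grey and dashed lines at 3-fold. The grey cloud widens toward low levels, Pgf lies on its upper edge of genes listed at 0 in WT, and Thbs1 lies just past the lower line.

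The signalling receptors of VEGF were at low levels, whereas the co-receptors were well expressed. Flt1 was at 1.93 FPKM in WT but listed at 0 in KO, and Kdr was at 1.01 and 1.36 FPKM. Nrp1 was at 68.4 FPKM in WT against 62.4 FPKM in KO, and Nrp2 at 72.2 and 46.7 FPKM. None of the 4 genes of this list that passed the filter was past 3-fold, against 27.3% of all genes compared. Flt1 was just short of it at -1.55. It was past it with a pseudocount of 0.1 or 0.01 and by the ratio of FPKM values. Each of these settings gave 1 gene of the list past 3-fold, against 36.4%, 37% and 37.1% of all genes compared. Vegfc and Flt4, the lymphatic ligand and its receptor, were listed at 0 in both.

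Igf1 (ENSMUSG00000020053) differed by -0.31 between the libraries, and its KO level was 80.7% of the WT level. Among the 653 genes with a mean of 100 to 1000 FPKM, 1.99% were past 3-fold and the quartiles of the difference were -0.31 and 0.30, so Igf1 lay at the lower one. Igf1r, its receptor, was at 8.02 FPKM in WT against 12.6 FPKM in KO. Igf2r, which encodes the receptor that clears IGF2, was at 5.10 and 2.42 FPKM, and Insr, the insulin receptor gene, was at 10.9 and 10.8 FPKM. Of the genes of IGF binding proteins, Igfbp4 was the highest, at 203 FPKM in WT against 130.3 FPKM in KO, and Igfbp7 was at 16.9 and 43.3 FPKM, both not past 3-fold. Igfbp6, listed at 0 in WT but at 5.40 FPKM in KO, was the single gene of the 7 compared on this list that was past 3-fold, which was 14.3% against 27.3% of all genes compared. Igf2, Igfbp1, Igfbp2 and Igfbp3 were listed at 0 in both libraries.

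Both EGF receptor ligands among the 10 genes, Hbegf and Areg, were lower in KO without reaching 3-fold. Hbegf, whose product is made as a membrane precursor and shed, differed by -0.31. Its counting intervals of 39.0 to 45.9 FPKM in WT and 31.2 to 36.7 FPKM in KO did not overlap. The difference lay within the quartiles of its band of 20 to 50 FPKM, -0.57 and 0.59, where 34.4% of genes had a lower one. Areg, which encodes amphiregulin, was at 11.8 FPKM in WT against 7.27 FPKM in KO, a difference of -0.62. Its counting intervals, 9.37 to 14.6 FPKM and 5.62 to 9.25 FPKM, were close to each other but did not overlap. At a mean of 5 to 10 FPKM, 32.4% of genes were past 3-fold and 31.8% had a lower difference than Areg. Amphiregulin is also made by mast cells and by type 2 innate lymphoid cells. All 6 mast cell and basophil markers were at 0 in both libraries. Of the 7 T cell and type 2 innate lymphoid markers in the table, Cd3e, Cd3g, Gata3 and Il13 were at 0 in both, and Il5 was at 0 and 0.281 FPKM. Il7r was higher in KO, at 5.82 and 11.9 FPKM. Il1rl1, which encodes the IL-33 receptor of those lymphoid cells and of other cells, was at 13.0 FPKM in WT against 26.4 FPKM in KO. The sum over the 7 markers was 18.8 FPKM in WT against 38.5 FPKM in KO. The part of these cells in the Areg difference was not tested.

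The shedding machinery and the main receptor were present in both libraries. Of the 7 genes compared on the list of this family, 2 were past 3-fold, the ligands Tgfa and Nrg4, which was 28.6% against 27.3% of all genes. Adam17, the main sheddase of these ligands, was at 38.0 FPKM in WT against 34.9 FPKM in KO. Rhbdf2, which encodes the iRhom2 protein that guides it in macrophages, was at 97.4 and 91.9 FPKM. Its relative Rhbdf1 was at 14.8 FPKM in WT against 5.52 FPKM in KO, a difference of -1.27, and Adam10, another sheddase, was at 19.3 and 22.96 FPKM. Egfr was at 35.5 FPKM in WT against 33.1 FPKM in KO, a difference of -0.10. Erbb4, the other receptor that binds HB-EGF, was listed at 0 in both, as were Erbb2 and Erbb3. Among the other ligands of this family, Tgfa was listed at 0 in WT but at 3.07 FPKM in KO, past 3-fold higher, and Nrg4 was at 4.62 FPKM in WT but listed at 0 in KO, past 3-fold lower.

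Over the 77 further ligands, receptors, binding proteins and proteases of these pathways, 42 passed the filter and 32 were listed at 0 in both libraries. Of the 42, 4 were past 3-fold higher and 6 were past 3-fold lower in KO. That was 23.8%, against 27.3% of all genes compared, and their median difference was -0.01. The genes past 3-fold were Pdgfra, Igfbp6, Tgfa and Thbs3 on the higher side and Pdgfrb, Nrg4, Cd47, Hgf, Tgfb3 and Edn1 on the lower side. They are the full set past 3-fold, and 8 of these 10 were under 1 FPKM or at 0 in 1 library. Hgf, which encodes hepatocyte growth factor, was at 5.14 FPKM in WT against 0.245 FPKM in KO. Edn1, which encodes the vasoconstrictor endothelin-1, was at 3.86 FPKM in WT but listed at 0 in KO. Grn, which encodes progranulin, was the highest of the 77, at 1146 FPKM in WT against 1078 FPKM in KO.

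**Figure D4:**
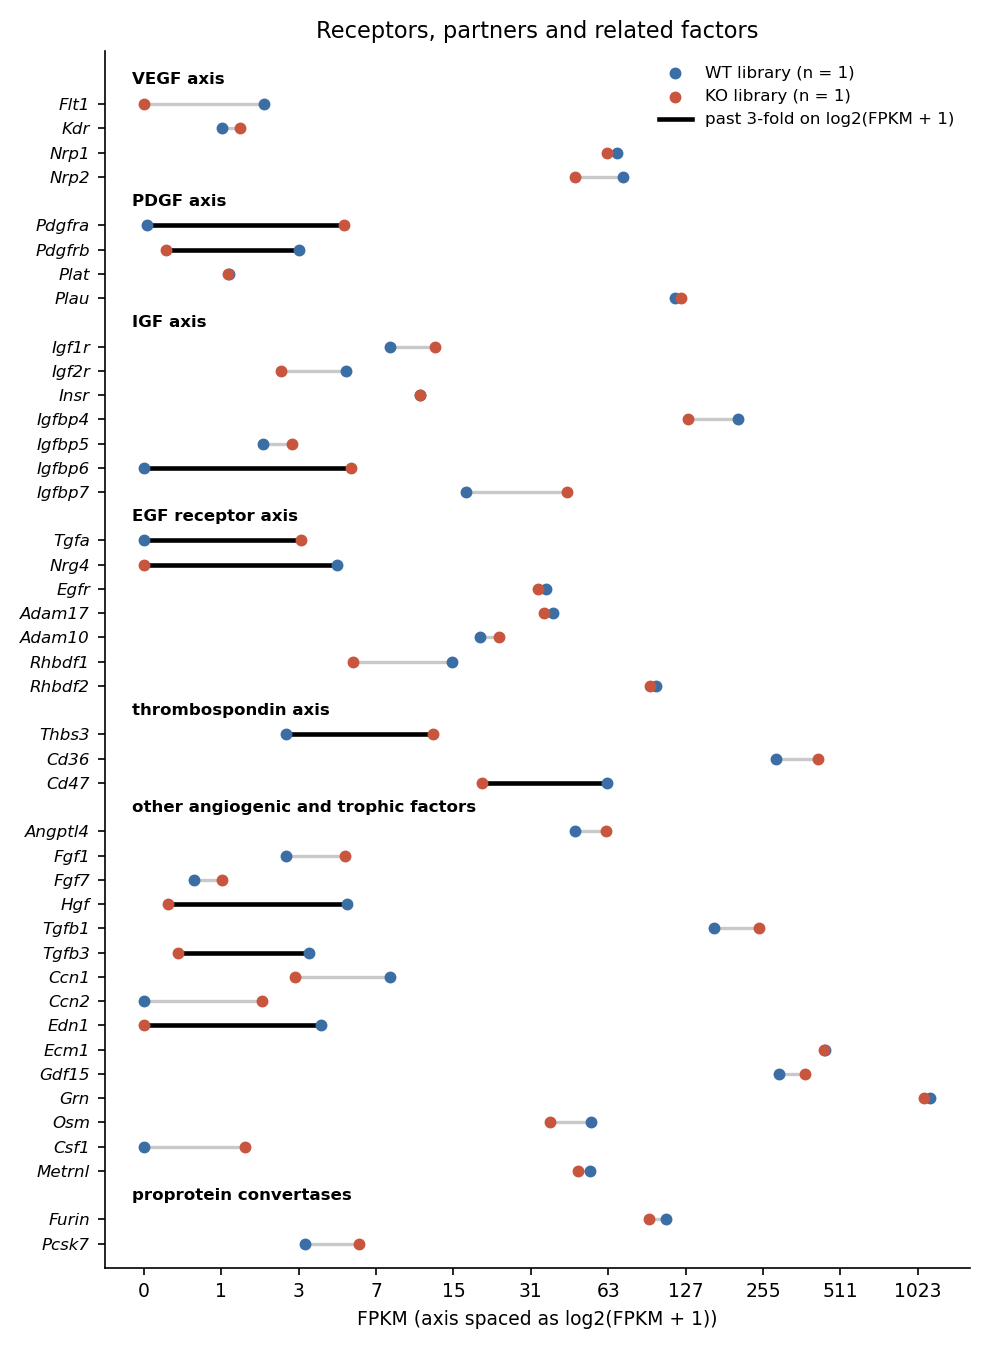
FPKM in the WT (blue) and KO (red) libraries (n = 1 each) of the 42 pathway genes past the filter, on an axis spaced as log2(FPKM + 1), with a black line where the difference was past 3-fold. Of the 10 black lines, those of Cd47 and Thbs3 join points that are both at 1 FPKM or more.

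Vegfa was also read beside other genes of oxygen sensing and HIF-1 response. Of 16 such genes past the filter, 2 were past 3-fold higher and 3 were past 3-fold lower in KO. That was 31.25% against 27.3% of all genes compared, and the median difference was -0.28. The number past 3-fold was 5, but 2 where both libraries had to reach 1 FPKM, against 11.5% of all genes under that filter. It was 3 where the mean had to reach 5 FPKM, against 18.1% of all genes. Of the 5, Hilpda and Egln1 reached 10 FPKM in a library. Hilpda, which encodes a hypoxia-induced lipid droplet protein, was at 149 FPKM in WT against 7.30 FPKM in KO, a difference of -4.17. At a mean of 50 to 100 FPKM, where Hilpda lies, 4.95% of genes were past 3-fold. Egln1, which encodes the prolyl hydroxylase PHD2, was at 18.1 FPKM in WT but under 1 FPKM in KO, at 0.865. Its difference was -3.36, and at a mean of 5 to 10 FPKM, where it lies, 32.4% were past 3-fold. The higher genes past 3-fold were Bnip3, which encodes a mitophagy protein, at 1.51 and 8.93 FPKM, and Hif1an, which encodes the HIF hydroxylase FIH, at 0.574 and 4.59 FPKM. Pdk1, also past 3-fold lower, was at 4.46 FPKM in WT but listed at 0 in KO. Slc2a1, the gene of the glucose transporter GLUT1, was at 15.4 FPKM in WT against 41.97 FPKM in KO, not past 3-fold. Ldha, at 105.9 FPKM in WT against 57.1 FPKM in KO, and Pgk1, at 84.9 and 51.0 FPKM, were also not past it. Of the 16 genes, 7 had a higher and 9 a lower value in KO.

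The estimated depth was 5870000 fragments in WT and 7470000 in KO. The sorted cells carried the macrophage genes Adgre1, Itgam, Csf1r, Fcgr1, Mertk and Lyz2 in both libraries. None was past 3-fold, which few genes at such levels were, 11.7% at a mean of 20 to 50 FPKM and 1.99% at 100 to 1000 FPKM. Fcgr1, at 49.3 and 21.9 FPKM, and Mertk, at 38.0 and 88.1 FPKM, were past 2-fold in opposite directions. Each of the 5 neutrophil markers compared had a higher value in KO, 2 of them past 3-fold, against 13.6% of all genes past 3-fold higher. The sum over the 7 neutrophil markers in the table was 143 FPKM in WT against 497 FPKM in KO. Most of it came from S100a8, at 73.3 and 182 FPKM, and S100a9, at 63.4 and 301 FPKM. Camp and Ltf were at 0 in both libraries. Of 5 eosinophil markers, Siglecf, Prg2 and Epx were at 0 in both libraries. The other 2 were past 3-fold higher, against 13.6% of all genes compared. Ccr3 was at 0 and 7.45 FPKM and Alox15 at 6.50 and 25.7 FPKM. At a mean of 2 to 5 FPKM, where Ccr3 lies, 25.3% of genes were past 3-fold higher. At 10 to 20 FPKM, where Alox15 lies, it was 10.2%. The sum over the 5 eosinophil markers was 6.50 FPKM in WT against 33.1 FPKM in KO. The part of neutrophil and eosinophil RNA in the growth factor differences was not tested.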

How the data were processed

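Poly(A) RNA of F4/80 and CD11b sorted ATM was sequenced in 1 WT and 1 KO library. The authors deposited a table of FPKM values, which are divided by transcript length and by mapped fragments, and are not counts. The submitters' processing notes name CASAVA 1.8.2, TopHat2 2.0.9, Cufflinks 2.2.1 and the build mm9. The annotation and filters are not given in the sources used here. The mutant column was taken as KO, the remaining label. Of 20749 rows, 401 full repeats were dropped and 18 further rows of repeated identifiers were summed, which left 20330 genes, 98.5% of them with a symbol in GENCODE M21 (GRCm38), the source of lengths and gene positions here.

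Differences were log2(FPKM + 1), KO minus WT, for the 10297 genes that reached 1 FPKM in either library. The pseudocount understates changes of low genes. With 1 library per genotype no p-value was computed. Depth was estimated from the smallest recurring FPKM x kb in genes with 1 annotated transcript, 0.170 in WT and 0.134 in KO, taken as 1 fragment. PCR copies are not independent, so intervals cover counting error only. Python 3.11.15, numpy 2.4.6, pandas 2.3.3 and scipy 1.17.1 were used, and the steps were tested on simulated data.

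All 10 growth factor genes are named. Of the pathway lists, Flt1, Kdr, Nrp1, Nrp2, Pdgfra, Pdgfrb, Igf1r, Egfr, Erbb4, Cd36, Cd47, Hif1a and genes past 3-fold with an FPKM of at least 10 in a library are named by rule, and other genes were named after their values were seen. The members and lists were chosen with earlier results of these data known. The 11 alternatives changed the pseudocount, filter, threshold, scaling or the treatment of repeated identifiers.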

Additional observations from a re-analysis of the deposited data

How the results depend on the processing

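Thbs1 was past the fold in all 11 alternatives, and its difference lay between -1.78 and -1.65. Only the alternatives of pseudocount and scaling changed that difference, and the 2-fold threshold is easier to pass. The number of growth factor genes past the fold was 2 of 10, against 27.3% of all genes compared. It was 1 of 9 where both libraries had to reach 1 FPKM, against 11.5% of all genes under that filter. It was 1 of 8 where the mean had to reach 5 FPKM, against 18.1% of all genes. Both filters leave out Pgf. With a 2-fold threshold it was 3 of 10, where Pdgfc was added, against 45.6% of all genes. The difference of Pgf was 5.86 with a pseudocount of 0.1 and 9.16 with 0.01, so its size is set by the pseudocount. The median over the growth factor genes lay between -0.31 and -0.12, Hif1a between -0.54 and -0.47 and Pdgfa between -0.06 and 0.01. In place of a replicate spread, an allowance of 1.5-fold was used. It is a set value and not an estimate of that spread, which is unknown. Over all genes compared, the quartiles of the difference were -1.47 and 1.63 at a mean of 2 to 5 FPKM. They were -0.57 and 0.59 at 20 to 50 FPKM. No paired analysis was possible because WT and KO are single libraries. Depth limits Vegfa, and its estimated fragments depend on the transcript length, from 12.6 to 84.5 in WT and from 16.7 to 112 in KO over its coding transcripts.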
